A study of Homo sapiens with 96 samples.

Results

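Ribosome biogenesis genes code for the nucleolar factors that make, modify and assemble ribosomal RNA into ribosomal subunits. They were followed on expression arrays of MDA-MB-231 cells, an established human breast cancer line. The members were all probe sets annotated to any of 33 listed symbols. The symbols were listed by gene name, with earlier results of these data known. Of the 33 symbols, 28 had a named probe set, and together these had 43 of the 22215 probe sets tested. The other 5 symbols, LYAR, EBNA1BP2, FBL, GNL3 and WDR43, had no named probe set and were not analysed here.

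The study had 96 arrays, 64 of cells in 2D culture from the series labelled 2D03 and 2D04 (32 arrays each) and 32 of cells in 3D culture from the series labelled 3D04. Cells at 80% confluence were held in low serum for 24 h before treatment. The U0126 arm was pretreated for 30 min with 10 uM U0126, an inhibitor of the kinases MEK1 and MEK2, and then given EGF (epidermal growth factor) at 10 ng/ml. The DMSO-EGF arm had the solvent DMSO and then EGF, the EGF arm had EGF alone, and the control arm had neither. All 4 arms were sampled at 0.5, 1, 4, 8, 12, 24 and 48 h after EGF, with 1 array per arm and time in each series. At 0 h there were 4 control arrays in 2D and 2 in 3D, besides arrays after pretreatment with U0126 or DMSO. The inhibitor was used at a single dose and in 1 cell line, and the labels do not say whether the 2D03 and 2D04 arrays came from separate cultures prepared side by side.

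A ribosome is built in the nucleolus. RNA polymerase I transcribes the large ribosomal RNA precursor, small nucleolar ribonucleoproteins (snoRNPs) guide its methylation and pseudouridylation, and separate sets of assembly factors mature the small and the large subunit. In growing cells many of these genes are transcribed together under MYC, a transcription factor that binds the E-box motif CACGTG and lies downstream of growth factor and ERK signalling.

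RefSeq promoter windows (GRCh38.p14, 250 bases before to 50 after the annotated start) were at hand for 24 of the 28 member genes, the exceptions being NOLC1, RRP1B, BOP1 and RRS1. The letters CACGTG, which read the same on both strands, stood in 10 of these 24 genes (41.67%), against 11.75% of the 9593 genes with a named probe set and 8.775% of all 27305 genes with a window. The 10 were GAR1, UTP20, RRP9, NOP14, RCL1, BYSL, PES1, MRTO4, NOP2 and DDX21, and all their copies began between 31 bases before and 36 bases after the start. A gene counted if any of its windows held the motif: GAR1 and DDX21 each had another annotated start whose window lacked it. By window the motif stood in 10 of 28 (35.71%), against 8.574% of the windows of genes with a named probe set. An ETS-type motif, CCGGAA on either strand, stood in 54.17% of the member genes, 29.05% of genes with a named probe set and 20.1% of all genes with a window. Related gene lists held these letters too: a list of other ribosome biogenesis genes held CACGTG in 27.16% and CCGGAA in 61.73% of its genes, and the cytoplasmic ribosomal proteins held them in 6.349% and 57.14%. Stretches from 75 bases before to 50 after the start are shown for 4 members that fell in U0126 cells and hold the E-box, which is in capitals:
DDX21, chr10:68956572-68956696, plus strand: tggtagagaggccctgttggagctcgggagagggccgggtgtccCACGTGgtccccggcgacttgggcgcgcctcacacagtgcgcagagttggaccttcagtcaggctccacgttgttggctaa
NOP2, chr12:6568242-6568366, minus strand: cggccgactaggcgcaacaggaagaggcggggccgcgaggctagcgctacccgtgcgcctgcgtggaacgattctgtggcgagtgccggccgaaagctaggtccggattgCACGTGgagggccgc
MRTO4, chr1:19251730-19251854, plus strand: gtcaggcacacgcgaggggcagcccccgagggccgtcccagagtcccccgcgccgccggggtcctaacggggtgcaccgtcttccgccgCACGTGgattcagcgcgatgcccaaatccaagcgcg
GAR1, chr4:109815687-109815811, plus strand: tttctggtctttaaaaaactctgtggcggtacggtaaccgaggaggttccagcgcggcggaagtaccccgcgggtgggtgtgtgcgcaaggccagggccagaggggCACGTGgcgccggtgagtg
A match to a motif describes these letters and is no evidence that a factor bound there. In late 2D cultures the median U0126 minus DMSO-EGF log2 difference was -0.50 over the 10 genes with CACGTG. It was -0.52 over the 14 without it. NOLC1, RRP1B, BOP1 and RRS1 are in neither median, and whether the motif goes with the size of change was not tested.

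Deposited values were log-scale and centred for each probe set, so only differences between arrays are read, and levels of different genes are not compared. Array medians lay between -0.06 and 0.03. Differences are U0126 minus DMSO-EGF unless stated, on the log2 scale, with 0.5 h pooled with 1 h (early window), 4 h with 8 and 12 h (middle), and 24 h with 48 h (late). A probe set was called lower or higher at a limma adjusted p under 0.05 over all probe sets. For a gene with several probe sets, the one that varied most over all arrays is read. DUSP6, a phosphatase induced by ERK signalling, was the check on the inhibitor and was lower in late 2D U0126 cells by a log2 difference of -2.60 (SE 0.21, limma adjusted p = 2.2e-11) and in 3D from the early window on (-2.89, SE 0.30, adjusted p = 2.9e-05). The U0126 arrays of series 2D03 at 8 and 12 h stood apart in RNA quality, with actin 5' minus 3' values of -1.26 and -1.08 against -0.36 to 0.31 on the other 94 arrays. Of the markers of other cell types, 0 of 17 fibroblast and 0 of 7 leukocyte probe sets changed in any 2D window, and array means of the fibroblast list ran from -0.21 to 0.09 in 2D U0126 cells and from -0.21 to -0.01 in 2D DMSO-EGF cells. Since values are centred, the absolute level of any marker cannot be read.

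In 2D cultures the ribosome biogenesis genes were lower in U0126 cells by 24 to 48 h. In the late window 29 of the 43 probe sets fell and 0 rose, against 4.97% of all probe sets lower and 5.37% higher. These covered 22 of the 28 genes. The median difference over the members was -0.52, against 0.01 over all probe sets. In each of the 4 pairs of U0126 and DMSO-EGF arrays of equal time and series, 38 of the 43 were lower in U0126 (16.8% of all probe sets), and in 26 every U0126 array lay below every DMSO-EGF array (4.79% of all). In these bulk samples, less of a transcript in every cell and fewer cells that carry it cannot be told apart.

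**Figure D1:**
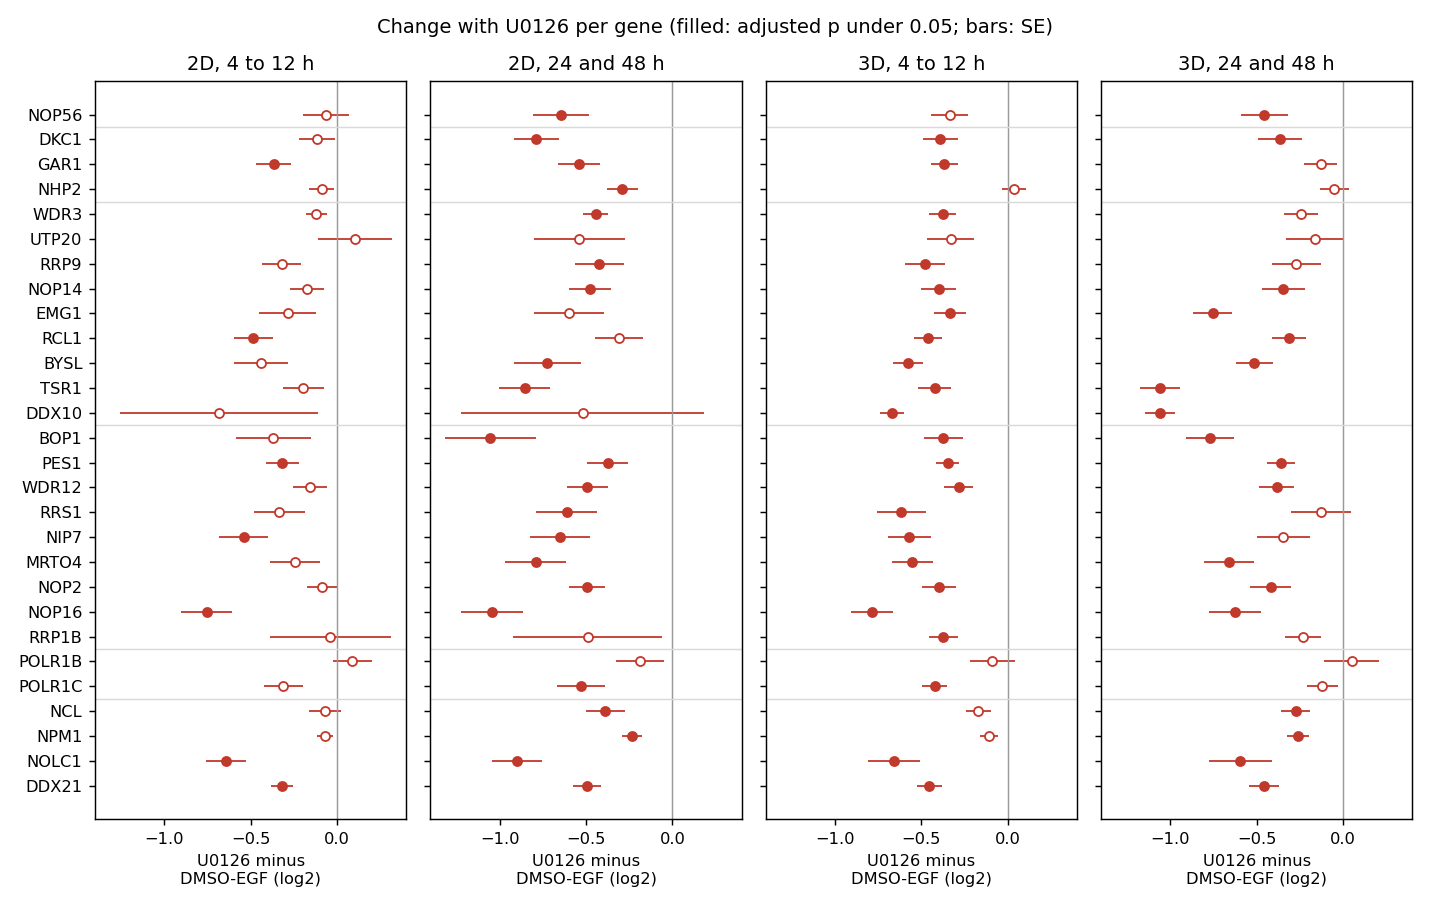
Log2 difference U0126 minus DMSO-EGF (horizontal axis) for the 28 ribosome biogenesis genes, grouped by role down the page, in the middle and late windows of 2D and 3D culture. Points are fitted differences, bars their standard error, and filled points had a limma adjusted p under 0.05: 22 of 28 genes are filled in the late 2D panel, and all filled points in the 4 panels lie below 0.

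Among snoRNP proteins all 4 measured genes fell in the late 2D window. NOP56, a core protein of the box C/D particles that guide ribose methylation, was lower by a log2 difference of -0.65 (SE 0.16, limma adjusted p = 0.0063), while its other probe set was at -0.36 (adjusted p = 0.25). DKC1 (dyskerin), the pseudouridine synthase of the box H/ACA particles and a part of telomerase, read 0.18 and -0.23 at 24 h and -0.44 and -0.83 at 48 h on the U0126 arrays of series 2D03 and 2D04, against 0.77 and 0.53 at 24 h and 0.44 and 0.09 at 48 h on the DMSO-EGF arrays. Each U0126 array was below its own DMSO-EGF partner, and the groups overlapped only where the 24 h U0126 array of 2D03 (0.18) exceeded the 48 h DMSO-EGF array of 2D04 (0.09). The fitted difference was -0.79 (SE 0.13, adjusted p = 3.2e-05), 1.73-fold lower, and the other DKC1 probe sets fell by 0.71 and 0.74. Its partners in the particle moved less: GAR1 fell by 0.54 (SE 0.12, adjusted p = 0.0024) and NHP2 by 0.29 (SE 0.09, adjusted p = 0.029).

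Of the 9 small subunit assembly genes, 5 fell. WDR3, a component of the small subunit processome, read 0.33 and -0.04 at 24 h and -0.22 and -0.21 at 48 h on the U0126 arrays of 2D03 and 2D04. The DMSO-EGF arrays read 0.44 and 0.44 at 24 h and 0.41 and 0.35 at 48 h. All 4 U0126 values were below all 4 DMSO-EGF values, narrowly so for 2D03 at 24 h, and the fitted difference was -0.45 (SE 0.07, adjusted p = 3.9e-05), 1.36-fold lower. TSR1, a GTPase-like factor of late small subunit maturation, read -0.61 and -0.54 at 24 h and -0.71 and -1.18 at 48 h on U0126 arrays, against 0.21 and 0.23 at 24 h and 0.06 and -0.12 at 48 h on DMSO-EGF arrays. The TSR1 groups did not overlap and differed by -0.86 (SE 0.15, adjusted p = 7.0e-05), 1.81-fold lower. Of the other TSR1 probe sets, 1 fell by 0.74, and 1 whose type can hybridise to related sequences was at -0.25 (adjusted p = 0.45).

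BYSL (bystin), an adaptor in pre-ribosome assembly, fell by 0.73 (SE 0.19, adjusted p = 0.0098). NOP14, which works in the nucleolar small subunit precursor, fell by 0.48 (SE 0.12, adjusted p = 0.0072), but its other probe sets read 0.02 and -0.11 and were not called. RRP9, a binding protein of the U3 snoRNA, fell by 0.42 (SE 0.14, adjusted p = 0.045). The 4 others did not pass the test: EMG1, a methyltransferase of small subunit ribosomal RNA, was at -0.60 (SE 0.20, adjusted p = 0.053), UTP20, a processome scaffold protein, at -0.54 (SE 0.26, adjusted p = 0.24), RCL1, a factor of early precursor cleavage, at -0.31 (SE 0.14, adjusted p = 0.18) and DDX10, an RNA helicase, at -0.52 (SE 0.70, adjusted p = 0.81).

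DDX10 stood at different levels in the 2D series. Its 24 and 48 h values were 1.19 and -0.41 on U0126 arrays and 1.39 and 0.53 on DMSO-EGF arrays in 2D03, and -0.63 and -1.27 on U0126 arrays and -0.35 and -0.61 on DMSO-EGF arrays in 2D04. U0126 was below DMSO-EGF in all 4 pairs, but over all arrays the 2D04 series averaged 1.48 lower than 2D03 for this gene (0.04 and 1.52). RRP1B shifted the other way, by 0.89. With the series as a replicate block, DDX10, RRP1B, EMG1 and UTP20 passed the test (adjusted p = 0.0016, 0.0017, 0.0016 and 0.013), which made 33 of 43 probe sets lower against 10.3% of all.

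Of the 9 large subunit assembly genes 8 fell, among them BOP1 and NOP16, the lowest of the 28. NOP16, a factor of the early large subunit precursor, read -0.86 and -0.59 at 24 h and -1.13 and -1.25 at 48 h on the U0126 arrays of 2D03 and 2D04, against 0.01 and 0.41 at 24 h and -0.16 and 0.09 at 48 h on the DMSO-EGF arrays. The groups did not overlap, and NOP16 differed by -1.05 (SE 0.18, adjusted p = 6.8e-05), 2.06-fold lower. A further NOP16 probe set fell by 1.08, whereas the remaining one was at 0.10 (adjusted p = 0.72).

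Transcripts of BOP1, PES1 and WDR12 all fell. Their proteins form the PeBoW complex, which is needed to process the large subunit RNAs and was not itself measured. BOP1 fell by 1.06 (SE 0.26, adjusted p = 0.0058), WDR12 by 0.49 (SE 0.12, adjusted p = 0.0042) and PES1 by 0.38 (SE 0.12, adjusted p = 0.032). MRTO4, which occupies the place of the ribosomal stalk protein on pre-ribosomes, fell by 0.79 (SE 0.18, adjusted p = 0.0017). NIP7, an accessory factor of precursor RNA processing, fell by 0.65 (SE 0.17, adjusted p = 0.0094), RRS1, which helps to load the small RNA of the large subunit, by 0.61 (SE 0.18, adjusted p = 0.019), and NOP2, a methyltransferase of large subunit RNA, by 0.50 (SE 0.11, adjusted p = 0.0012). RRP1B, a nucleolar protein of the same pathway, was at -0.49 (SE 0.43, adjusted p = 0.64), and its other probe set at 0.04.

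Of the polymerase subunits, POLR1C, which RNA polymerases I and III share, fell by 0.53 (SE 0.14, adjusted p = 0.0084), while POLR1B, a large catalytic subunit of RNA polymerase I, was at -0.19 (SE 0.14, adjusted p = 0.54). All 4 nucleolar phosphoproteins, chaperones and helicases fell. NOLC1 (Nopp140), a chaperone that accompanies snoRNPs, read -0.62 and -0.91 at 24 h and -1.0 and -1.50 at 48 h on U0126 arrays of 2D03 and 2D04. The DMSO-EGF arrays read -0.03 and 0.00 at 24 h and -0.16 and -0.24 at 48 h. The highest U0126 value was thus below the lowest DMSO-EGF value, the fitted difference was -0.90 (SE 0.14, adjusted p = 2.0e-05), 1.87-fold lower, and the other NOLC1 probe sets fell by 0.87 and 0.66.

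DDX21, a nucleolar RNA helicase that promotes ribosomal RNA transcription and processing, read -0.33 and -0.21 at 24 h and -0.62 and -0.73 at 48 h on U0126 arrays, against 0.16 and 0.09 at 24 h and -0.04 and -0.12 at 48 h on DMSO-EGF arrays. These groups did not overlap and differed by -0.50 (SE 0.08, adjusted p = 2.1e-05), 1.41-fold lower. Nucleolin and nucleophosmin, the abundant nucleolar phosphoproteins, moved least of the 4. NCL (nucleolin) read 0.10, 0.18, 0.08 and -0.24 on U0126 arrays and 0.45, 0.49, 0.38 and 0.35 on DMSO-EGF arrays, without overlap (difference -0.39, SE 0.11, adjusted p = 0.019). NPM1 (nucleophosmin) read -0.01, -0.24, -0.48 and -0.34 on U0126 arrays and 0.19, -0.04, -0.21 and -0.08 on DMSO-EGF arrays, in the order 24 h of 2D03 and 2D04, then 48 h. The NPM1 groups overlapped although each U0126 array was below its partner, and the difference was -0.23 (SE 0.06, adjusted p = 0.0063); its other probe sets, at -0.10 and -0.09, were not called.

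**Figure D2:**
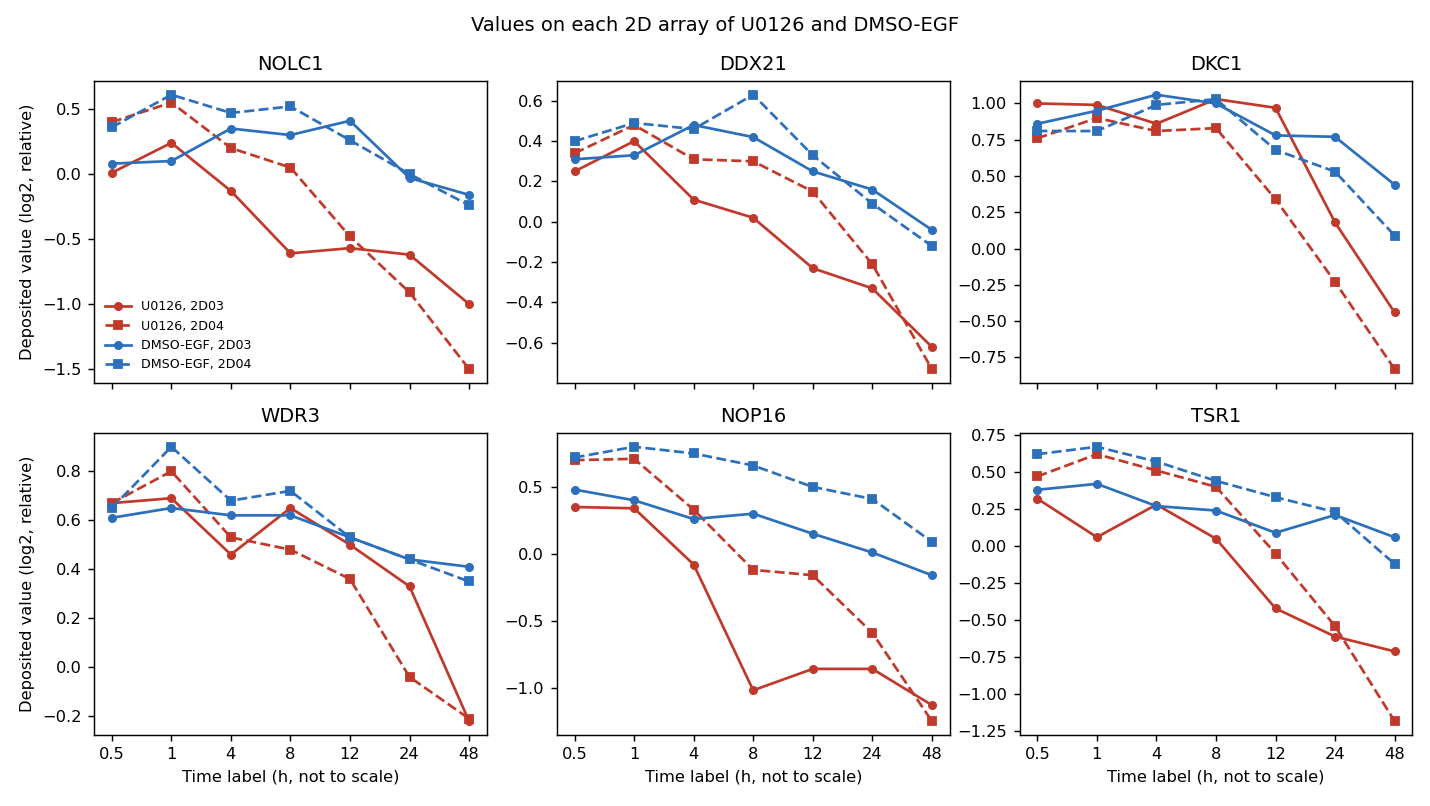
Deposited values (vertical axis, log scale, centred per probe set) of NOLC1, DDX21, DKC1, WDR3, NOP16 and TSR1 on each 2D U0126 and DMSO-EGF array, by hours after EGF (horizontal axis). Each point is 1 array: in all 6 genes both U0126 arrays lie below both DMSO-EGF arrays at 48 h, where NOLC1 reads -1.0 and -1.50 with U0126 and -0.16 and -0.24 with DMSO-EGF.

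The difference built up over hours. After the pretreatment alone, at 0 h, 0 of the 43 probe sets differed between U0126 and DMSO in 2D by limma (0 also at an unadjusted p under 0.05, and 0% of all probe sets). In the early window 0 members were lower or higher (0.009% of all lower and 0% higher), 0 reached an unadjusted p under 0.05, and their differences ran from -0.16 to 0.16. By single times, 0 members were lower at 4 h (0.383% of all), 1 at 8 h (NOP16; 1.05%), 2 at 12 h (both NOLC1; 1.17%), 8 at 24 h (DKC1, TSR1, NOP16 and NOLC1; 1.02%) and 18 at 48 h (12 genes; 3.16%). With the replicate block these counts were 2, 10, 14, 22 and 29, against 0.959%, 3.9%, 5.96%, 4.52% and 7.46% of all probe sets. The 2 at 4 h were DDX10 (-0.80, blocked limma adjusted p = 0.0079) and NIP7 (-0.54, adjusted p = 0.025). The DDX10 difference did not build up steadily. In 2D03 and 2D04 its U0126 arrays read 1.04 and -0.27 at 4 h, against 1.96 and 0.41 with DMSO-EGF. At 24 h they read 1.19 and -0.63 against 1.39 and -0.35, and at 48 h -0.41 and -1.27 against 0.53 and -0.61. Median member differences at 4, 8, 12, 24 and 48 h were -0.11, -0.30, -0.37, -0.41 and -0.53 in 2D03 and -0.12, -0.14, -0.31, -0.51 and -0.64 in 2D04.

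**Figure D3:**
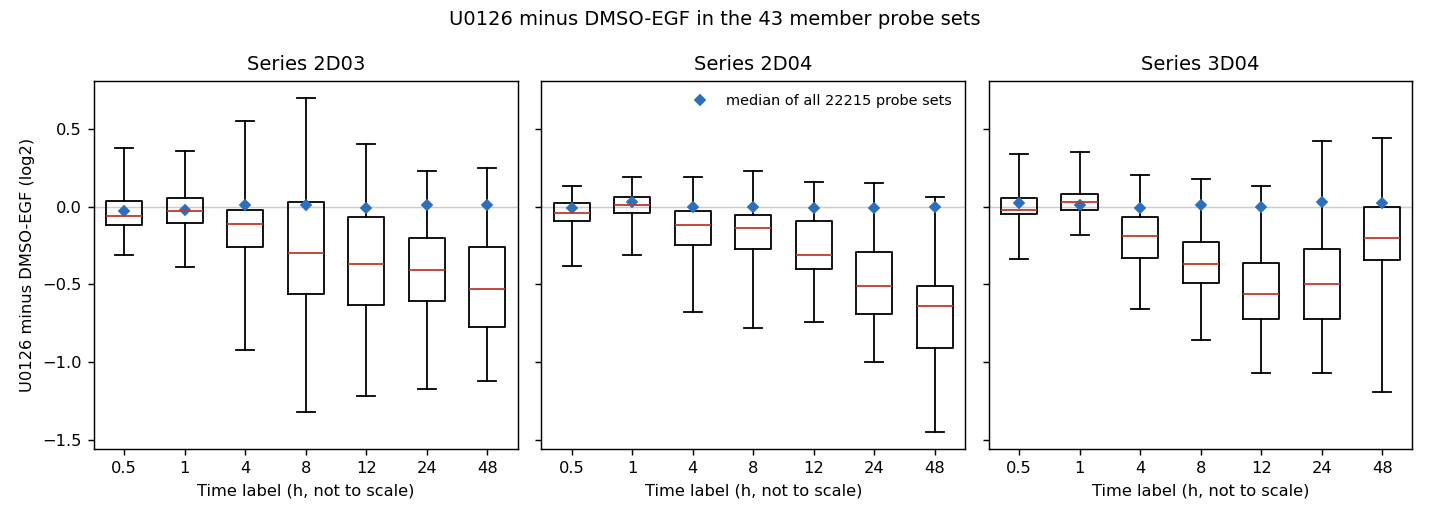
Log2 difference U0126 minus DMSO-EGF (vertical axis) of the 43 member probe sets at each time in hours (horizontal axis), with a panel per series. Boxes span the quartiles, whiskers the lowest and highest member, red lines the members' median and blue diamonds the median of all 22215 probe sets: the members' median lies lowest at 48 h in both 2D series (-0.53 and -0.64) and at 12 h in 3D (-0.56).

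Over the whole middle window 11 of the 43 probe sets fell and 0 rose (4.7% of all lower, 1.79% higher), with a median of -0.24. With the replicate block 19 fell (11.1% of all). In all 6 pairs of arrays 20 were lower in U0126 (8.58% of all), and in 2 of the 43 every U0126 array was below every DMSO-EGF array (1.55%). The 7 genes called by the probe set read were NOP16 (-0.76, SE 0.15, adjusted p = 7.3e-04), NOLC1 (-0.64, SE 0.12, adjusted p = 2.9e-04), NIP7 (-0.54), RCL1 (-0.49), GAR1 (-0.37), DDX21 (-0.32) and PES1 (-0.32). The highest gene was UTP20 at 0.11 (adjusted p = 0.87). The middle count depended on which arrays were included. Without the 2D03 U0126 arrays at 8 and 12 h, which had poorer RNA quality, the median was -0.13. Then 1 member remained lower by limma (NOLC1, -0.52, adjusted p = 0.017), and 14 were lower with the replicate block as well. The share of all probe sets in these fits is not given, so the counts are not read as particular to the members. Only 2D04 then had U0126 at 8 and 12 h, so without the block RNA quality and series cannot be told apart. Leaving out any single 2D03 U0126 or 2D04 DMSO-EGF array of this window left 5 to 7 lower.

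The late difference was larger than the middle one for DKC1 in a test of the change itself, by -0.67 (SE 0.17, limma adjusted p = 0.024) for the probe set read and by -0.48 (SE 0.13, adjusted p = 0.042) for another DKC1 probe set. These were the 2 of 43 lower in that comparison (0.846% of all, 0.936% higher), and 12 were lower with the replicate block (3.49% of all). The members' median change was -0.30, between BOP1 at -0.69 (adjusted p = 0.43) and RCL1 at 0.18 (adjusted p = 0.82). Between 24 and 48 h 0 members changed by limma, with or without the block (1 at an unadjusted p under 0.05; 0.14% of all lower), and their median change was -0.11. Without the 2D03 U0126 arrays at 8 and 12 h the DKC1 change was -0.53 (adjusted p = 0.11).

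In 3D culture, measured in 1 series, ribosome biogenesis genes were lower in U0126 cells from the middle window on. There 29 of the 43 probe sets fell and 0 rose (6.88% of all lower, 5.74% higher), with a median of -0.39, and 22 of 28 genes were called by the probe set read. All 9 large subunit assembly genes and 8 of the 9 small subunit assembly genes fell. With 8 h left out the count was 10, and with 12 h left out it was 6. In all 3 pairs of arrays 38 were lower (21.9% of all), and in 20 the groups did not overlap (10.8%). In the early 3D window 0 members were called and 0 had an unadjusted p under 0.05, against 0.266% of all lower.

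DDX10, whose 2D repeats differed in level, read -0.86, -0.95 and -1.10 at 4, 8 and 12 h on the 3D U0126 arrays and -0.28, -0.27 and -0.35 on the DMSO-EGF arrays. These did not overlap, and the middle difference was -0.67 (SE 0.07, adjusted p = 3.4e-06). NOP16 was the lowest gene at -0.79 (SE 0.12, adjusted p = 2.5e-04), followed in size among the 8 best supported genes by DDX10, BYSL (-0.58, SE 0.09, adjusted p = 1.8e-04), RCL1 (-0.46, adjusted p = 6.5e-04), DDX21 (-0.45, adjusted p = 2.4e-04), POLR1C (-0.42, adjusted p = 6.4e-04), GAR1 (-0.37, adjusted p = 0.0031) and PES1 (-0.35, adjusted p = 0.0018). The highest gene was NHP2 at 0.04 (adjusted p = 0.81).

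In the late 3D window 25 probe sets fell and 0 rose, against the much larger 16.1% of all lower and 18.7% higher there, with a median of -0.35. They covered 18 genes, among them NOP56, 6 of 9 small and 6 of 9 large subunit genes and all 4 nucleolar proteins, but 0 of the 2 polymerase subunits. In both pairs 30 were lower (29.8% of all), and in 29 the groups did not overlap (23.6%). Without the 24 h arrays 11 were lower and 1 higher, and with arrays weighted by quality 16 were lower. TSR1 read -0.82 and -1.08 at 24 and 48 h on U0126 arrays, against 0.25 and -0.03 on DMSO-EGF arrays, a difference of -1.06 (SE 0.11, adjusted p = 7.3e-07). DDX10 read -1.21 and -1.07 on U0126 arrays, against -0.28 and 0.12 on DMSO-EGF arrays, also a difference of -1.06 (SE 0.09, adjusted p = 2.4e-08). The groups of both genes stayed apart at either time.

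Other late 3D calls with small p were EMG1 (-0.76, SE 0.11, adjusted p = 3.2e-05), BOP1 (-0.77, SE 0.14, adjusted p = 2.2e-04), DDX21 (-0.46, SE 0.09, adjusted p = 3.6e-04), BYSL (-0.52, SE 0.11, adjusted p = 8.2e-04), MRTO4 (-0.66, SE 0.15, adjusted p = 0.0015) and PES1 (-0.36, SE 0.08, adjusted p = 0.0019), and the highest gene was POLR1B at 0.05 (adjusted p = 0.86). For several members the 3D arms drew closer at 48 h, where DMSO-EGF arrays were lower than at 24 h. NOLC1 read -1.08 on the U0126 and -0.09 on the DMSO-EGF array at 24 h, and -0.85 and -0.65 at 48 h. WDR3 likewise read -0.09 with U0126 and 0.38 with DMSO-EGF at 24 h, and 0.10 and 0.12 at 48 h. For some members the order was reversed at 48 h: RRS1 read -1.24 with U0126 and -1.49 with DMSO-EGF, and UTP20 -0.08 and -0.20. By contrast, 22 of the 28 genes were lower with U0126 at both late times. The members' median difference was -0.19, -0.37, -0.56, -0.50 and -0.20 at 4, 8, 12, 24 and 48 h. In this window 1 of 17 fibroblast and 1 of 7 leukocyte probe sets were higher in U0126 cells, with array means of the fibroblast list from -0.25 to -0.14 with U0126 and from -0.22 to -0.15 with DMSO-EGF; their part in the result was not tested.

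The U0126 difference itself was compared between cultures in 1 model. All 3D arrays came from series 3D04, so culture and series cannot be told apart in it. In the middle window 0 members differed between 3D and 2D by limma (0.725% of all lower in 3D, 1.22% higher), with 12 at an unadjusted p under 0.05, and a median of -0.13. The values ran from a NOP56 probe set not otherwise read, at -0.45 (SE 0.14, adjusted p = 0.080), to NHP2 at 0.13 (adjusted p = 0.61). By the probe sets read, the lowest gene was UTP20 at -0.44 (adjusted p = 0.14). In the late window the difference was smaller in 3D for POLR1C by 0.41 (SE 0.11, adjusted p = 0.012), GAR1 by 0.41 (SE 0.12, adjusted p = 0.021), DKC1 by 0.42 (SE 0.14, adjusted p = 0.044) and RRS1 by 0.49 (SE 0.16, adjusted p = 0.049), and larger for DDX10, at -0.54 (SE 0.17, adjusted p = 0.040). These 4 higher and 1 lower of 43 stood against 3.66% and 4.81% of all probe sets, and with arrays weighted by quality 0 of the 5 kept an adjusted p under 0.05. POLR1C, for example, was at -0.12 in 3D and -0.53 in 2D.

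**Figure D4:**
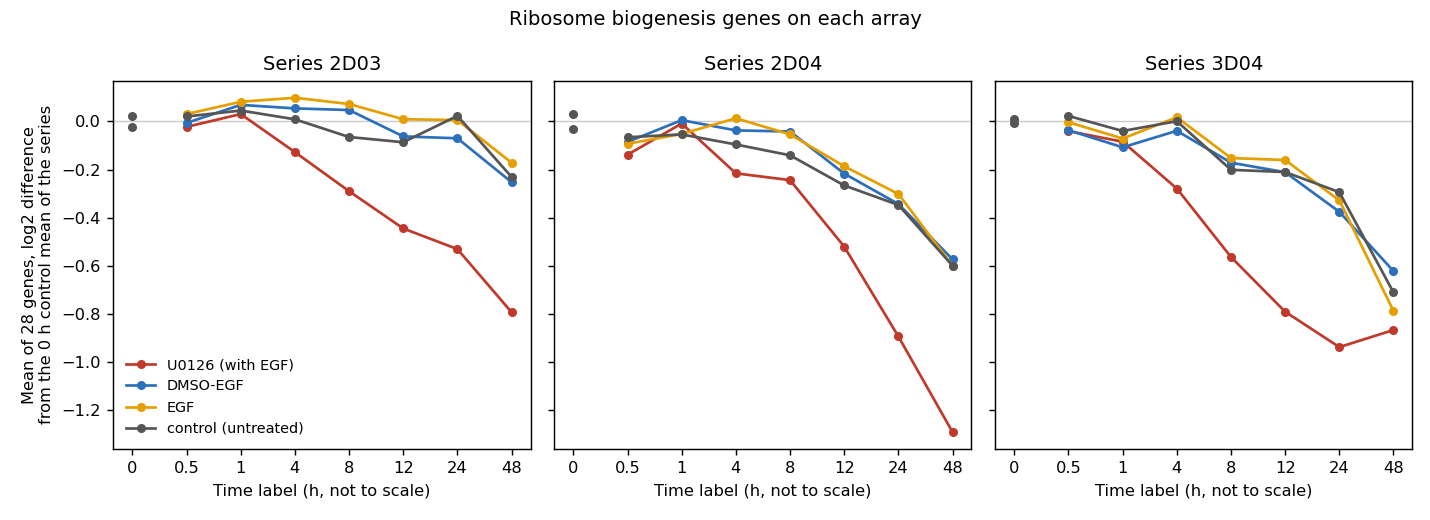
Mean of the 28 genes on each array, relative to the 0 h control mean of its own series (vertical axis, log2 scale), by hours after EGF (horizontal axis), with a panel per series and the arms U0126, DMSO-EGF, EGF and control. The U0126 points are lowest from 4 h on in every panel, reaching -0.79 (2D03) and -1.29 (2D04) at 48 h, while the other 3 arms also decline. At 48 h these 3 arms stand together, well above U0126, in both 2D panels. In 3D the gap is narrow there, with the EGF point close to U0126.

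EGF on its own left no called difference. Against the control arm, 0 members were lower or higher in the early, middle or late window of 2D, with or without the replicate block, or of 3D, and 0% of all probe sets were called by limma in each. In 2D 0, 2 and 0 of the 43 reached an unadjusted p under 0.05 in the 3 windows, and in 3D 0 in each. The median EGF minus control difference was 0.02, 0.08 and 0.02 in 2D and -0.03, 0.04 and -0.03 in 3D, against U0126 minus DMSO-EGF medians of -0.03, -0.24 and -0.52 in 2D. The direction over pairs of arrays varied by window and culture. In 2D, 2 of 43 were lower and 2 higher with EGF in every early pair (4.6% and 8.32% of all), 0 lower and 9 higher in every middle pair (2.29% and 2.93%), and 1 lower and 3 higher in every late pair (4.86% and 7.18%). In 3D, 17 were lower and 8 higher in both early pairs (28.3% and 19.7% of all), 2 lower and 14 higher in all 3 middle pairs (10.2% and 14.5%), and 19 lower and 4 higher in both late pairs (24.3% and 22%). In the middle 2D window 8 of 43 had a difference below 0, and genes ran from EMG1 at -0.02 (SE 0.17, adjusted p = 1) to DDX10 at 0.28 (SE 0.57, adjusted p = 1). The solvent made no called difference either: DMSO-EGF minus EGF gave 0 members and 0% of all probe sets in each window of both cultures (unadjusted, 1 member in the early 3D window and 0 in the others).

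The untreated control arrays themselves fell with time in culture. By the late window 4 of the 43 probe sets were lower than at 0 h in 2D and 0 were higher (1.7% of all lower, 1.92% higher), with a median of -0.26, and 17 were lower with the replicate block (6.28% of all). The called genes were NPM1 (-0.26, SE 0.06, adjusted p = 0.0067), DKC1 (-0.52, SE 0.13, adjusted p = 0.015) and DDX21 (-0.31, SE 0.08, adjusted p = 0.018). DKC1 read 0.47 and 0.06 at 48 h in the 2D controls of 2D03 and 2D04, against 0.90, 0.97, 1.15 and 0.90 on the 4 arrays at 0 h, so both 48 h values lay below all 4 at 0 h. The lowest gene was DDX10 at -0.91 (SE 0.70, adjusted p = 0.69) and the highest RRP1B at 0.05 (adjusted p = 0.99). At 48 h alone 7 probe sets were lower (2.36% of all), and 23 with the block (7.61%).

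The decline was steeper in 2D04: the members' median at 48 h against 0 h was -0.60 there and -0.20 in 2D03. Fitted alone, 2D04 gave 23 lower probe sets and 2D03 gave 0. The share of all probe sets in these fits is not given, so the counts are not read as particular to the members. The late 2D count was 0 without the 24 h control of 2D04, and 1 without either its 0 h array numbered 2 or its 48 h array. In the early and middle 2D windows 0 members were called (0% and 0.009% of all lower; 0 and 2 members unadjusted).

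In 3D controls 25 probe sets of 20 genes were lower in the late window (3.6% of all) and 0 higher (4.73%), with a median of -0.50, and 18 genes were called by the probe set read. Of the 8 best supported, BOP1 fell by 0.78 (SE 0.17, adjusted p = 0.025), RRS1 by 0.77, RRP9 by 0.76, NOP2 by 0.72, NOP16 by 0.71, WDR12 by 0.60 (SE 0.12, adjusted p = 0.021), RCL1 by 0.54 and NOP14 by 0.44, and the highest gene was DDX10 at 0.03 (adjusted p = 0.90). This count was 0 without the 48 h array and 0 without either 0 h array. The early and middle 3D windows had 0 called members (0% and 0.0045% of all lower; 0 and 1 unadjusted).

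Relative to the 0 h controls, the mean of the 28 genes at 48 h was -0.79 with U0126, -0.25 with DMSO-EGF, -0.17 with EGF and -0.23 in controls in 2D03. In 2D04 the 4 arms stood at -1.29, -0.57, -0.60 and -0.60, and in 3D at -0.87, -0.62, -0.79 and -0.71, in the same order. The U0126 array was the lowest in each series, and the gap to the other arms was wide in both 2D series and narrow in 3D, where single arrays were read.

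A wider list of 99 other ribosome biogenesis genes, of which 80 had 121 probe sets, also held many lower probe sets. In the late 2D window 33 of the 121 fell and 0 rose, against 4.97% of all probe sets lower and 5.37% higher, with a median of -0.27. With the replicate block 64 fell (10.3% of all). In the middle 3D window 53 fell and 3 rose (6.88% of all lower, 5.74% higher). The best supported were RRP15 (-0.93, SE 0.08) and MAK16 (-0.76, SE 0.08), both large subunit factors, GTPBP4, a nucleolar GTPase (-0.56, SE 0.08, adjusted p = 5.8e-06), and TAF1A, a subunit of the RNA polymerase I selectivity factor (-1.08, SE 0.18, adjusted p = 5.7e-05). The cytoplasmic ribosomal proteins, the products that these factors assemble with RNA, did not move alike: of 148 probe sets for 69 of 79 listed genes, in the late 2D window 1 fell (RPL23, -0.64, adjusted p = 0.0035) and 3 rose (RPL31, RPL35 and RPL28), with a median of 0.00. Probe sets for ribosomal proteins can also pick up near-identical processed copies, so single values among them are uncertain.

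MYC itself was measured by 1 probe set read here. In 2D it was at -0.26 in the early (adjusted p = 1), -0.62 in the middle (SE 0.25, adjusted p = 0.15) and -0.47 in the late window (SE 0.30, adjusted p = 0.45), and with the replicate block the middle and late values had adjusted p = 6.9e-06 and 0.0022. In 3D it was lower by -1.12 in the early window (SE 0.12, adjusted p = 6.3e-05), when 0 members were called, by -0.46 in the middle window (adjusted p = 0.0042), and stood at 0.05 in the late window (adjusted p = 0.83). Whether the difference in MYC between cultures exceeds its error was not tested.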

How the data were processed

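Expression was measured on Affymetrix arrays, 1 per sample. The values are log2 expression values made by the authors with RMA (robust multi-array average), per the submitters' processing notes, and deposited as 1 table of 22930 probe sets. The version and genome build are not given in the sources used here. The values ran from -5 to 5.7, so they were centred per probe set on a reference that is not stated, and the log base is read from the naming of RMA and is not stated in the table. The number of arrays, not a count of reads, limits the precision.

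Array controls (715 probe sets) were left out. Of the other 22215, 19230 had 1 symbol in the platform annotation and 2985 had none or several (125 of them several), and genes were named from probe sets with 1 symbol. In 2D, limma 3.58.1 (R 4.3.3) fitted 31 group means to 64 arrays with a variance trend, and contrasts averaged over the times of a window. In 3D, with 1 array per arm and time, it fitted arm by window and time terms to 28 arrays, and the drift of controls was fitted on 9 arrays with 5 residual degrees of freedom, so the times of a window stand in for repeats there. A joint fit of 84 arrays gave the difference between cultures. P-values were adjusted by Benjamini-Hochberg over all 22215, with a threshold of 0.05. The labels do not say whether repeats were separate cultures, so the p-values measure the spread between these arrays, which may be technical. The fit was tested on simulated data.

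The series label pairs the 2D repeats, and the arrays bear this out: over 465 pairs of groups, deviations from the group mean correlated between the groups with r from 0.20 to 0.79 (median 0.59). Blocked counts are given where the block moves a count by over 1.5 times. Blocked p-values of single genes are given for only some of the calls that the block changes. Alternatives were array centring, quantile normalization, no variance trend, array weights, dropping the probe sets of low spread, 1 or averaged probe sets per gene, the replicate block, each series alone, each array or time left out, and the 2D03 U0126 arrays at 8 and 12 h left out. Fits of the controls of each series alone and the block without 2 arrays of poorer RNA quality were added after the data were seen.

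Each member with a probe set is named with its late 2D value. In the other comparisons the genes named are up to 8 with the smallest adjusted p and the highest and lowest, and array values are given for the 6 with the smallest adjusted p in the late 2D comparison and for NCL and NPM1. DDX10 was added after its values were seen. The members, lists and tests were chosen with earlier results of these data known. Gene roles are textbook background. Promoters came from a RefSeq table (GRCh38.p14).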

Additional observations from a re-analysis of the deposited data

Results flagged for a closer look

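POLR1B had an array far from the others among the 4 untreated 2D arrays at 0 h: it read -0.02 there, against 0.20 on the nearest of the other 3. The gap was 0.96 of the whole range. It was the only one of 28 genes with such an array, and chance gives about 1 in 20. The 4 arrays came from both 2D series, whose POLR1B means over all arrays were 0.12 in 2D03 and -0.05 in 2D04.

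The late U0126 minus DMSO-EGF difference of 5 genes differed between 3D and 2D by a test of the difference itself. It was higher in 3D, and so smaller in size, for DKC1 by 0.42, GAR1 by 0.41, RRS1 by 0.49 and POLR1C by 0.41, and lower in 3D for DDX10, at -0.54. With arrays weighted by quality the 5 genes all lost the threshold. The shares of all probe sets called are given with that comparison above. In 2D the difference of DKC1 was lower in the late than in the middle window by -0.67 for the probe set read and by -0.48 for another, also by a test of the change itself.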

How the results depend on the processing

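Counts below are probe sets of 43 with a limma adjusted p under 0.05 unless stated. Shares of all probe sets are not given beside them, so they are read only for how far the calls depend on the processing. The late 2D U0126 count stayed within 1.5 times of 29 under every alternative run, and no called value of a named gene turned its sign under any alternative; of 3182 gene values, 147 lost and 64 gained the threshold. The replicate block gave 19 lower in the middle 2D window, 17 in the late drift of 2D controls and 12 in the late minus middle change, and it took away no member's call in the late window. Series 2D03 alone gave 19 in the middle window and 0 in the late drift, and 2D04 alone 23 in the late drift. Without the 2D03 U0126 arrays at 8 and 12 h, 1 was lower in the middle window and 4 in the late minus middle change (13 with the block as well). Array weights gave 6 lower in the middle 2D window, 16 in late 3D, 11 in the late 2D drift, 0 in late minus middle, and for 3D minus 2D 2 lower in the middle and 0 lower and 0 higher in the late window. Quantile normalization gave 1 lower in the middle and 0 lower in the late window of 3D minus 2D, and 1 in late minus middle. Centring each array on its median gave 2 higher in late 3D minus 2D. Per gene (of 28), reading 1 probe set gave 1 lower and 4 higher in late 3D minus 2D, and averaging probe sets 1 lower there, 5 in the late 2D drift and 3 in late minus middle. The cause of these shifts was not tested.

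Leaving out 1 array gave 21 to 28 lower in the late 2D window, 5 to 16 lower and 0 to 1 higher in the middle 2D window, 0 to 4 in late minus middle and 0 to 6 in the late 2D drift. The middle count was 5 to 7 without any one of the 2D03 U0126 or 2D04 DMSO-EGF arrays of that window. Leaving out 1 time in 3D gave 6 to 29 lower in the middle window (10 without 8 h, 6 without 12 h), 11 to 27 lower and 1 higher in the late window (11 without 24 h), and 0 to 34 in the late drift (0 without 48 h).

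With 1 array per arm, time and series, single times rest on 1 array in 3D and a pair in 2D.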
